A study of Mus musculus with 24 samples.

Results

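The comparison described here is that of F4/80+ liver cells taken 3 days after resection of 70% of the liver, with the spleen in place, against F4/80+ cells of livers that were not resected. Its members are the 3 arrays titled "Liver MP F4/80 - PH 3d" (called LR 3 days) and the 3 arrays titled "K intact" (called intact), 6 of the 24 arrays of the series, and every transcript cluster of the array was used. The methods give male C57BL/6 mice as the source of all groups. In the LR 3 days group the liver was resected and the spleen was not removed. The labels call the other group intact, whereas the methods speak of sham-operated animals, so whether these mice had an operation is not settled. Where time or the missing operation was of interest, the LR 24 h and LR 7 days groups (the same resection with the spleen in place) and the SE group (splenectomy with no resection) were added, each with 3 arrays.

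Both groups were prepared alike: the liver was digested with collagenase at 37 °C, hepatocytes were removed by slow centrifugation, and F4/80+ cells were drawn out of the remainder with magnetic beads. According to the methods the preparation pooled the cells of several mice, and the animals listed for the intact group are too few for 3 separate pools of that size. The arrays may therefore share mice or come from smaller pools. Every p-value below measures only the spread between arrays of the same group, pooled over all groups of the series, and that spread may be technical. Values are log2 signals of the Clariom S mouse array after RMA, and differences are in log2 units, LR 3 days minus the other group. A cluster was called where limma, fitted to all 24 arrays, gave a Benjamini-Hochberg adjusted p under 0.05, and "rose" and "fell" are used of called genes alone. Called genes are named only where the groups did not overlap, so that separation adds no support of its own. A signal of 3.98, the 95th percentile of the odorant receptor genes, served as the background level.

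Kupffer cells are the resident macrophages of the liver sinusoids. They clear particles, old red cells and bacteria from portal blood, recycle iron, and after resection deliver cytokines and growth factors to the hepatocytes that re-enter the cell cycle. Resident macrophages can renew themselves by division, and monocytes from blood can also enter the injured liver and take up F4/80. In bulk cells such as these, fewer cells of a type and less RNA per cell cannot be told apart.

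The cells carried the marks of their label in both groups. Adgre1, the gene of F4/80 itself, read 14.82, 15.11 and 14.83 on the LR 3 days arrays, against 13.83, 15.39 and 14.62 on the intact arrays. Clec4f, a C-type lectin found on Kupffer cells, read 19.37, 19.04 and 18.89 on the LR 3 days arrays, against 19.67, 19.41 and 19.21 on the intact arrays, close to the top of the scale at 19.93, where differences are compressed. Timd4, a receptor for phosphatidylserine on long-resident Kupffer cells, read 13.44, 13.58 and 13.46 on the LR 3 days arrays, against 13.87, 14.61 and 13.75 on the intact arrays. None of the 3 was called, and of 21 genes marking Kupffer cell identity only Marco was. RNA of hepatocytes was present on all 6 arrays, with Alb, the albumin gene, between 19.67 and 19.91, and the mean level of 35 hepatocyte genes overlapped, at 8.67 to 10.0 on the LR 3 days arrays and 8.26 to 9.92 on the intact arrays. Endothelial RNA was present too, and none of 30 sinusoidal endothelial genes was called.

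A further difference between the 2 groups stands before all results. Uty, a gene of the Y chromosome, read 9.69, 9.64 and 10.02 on the LR 3 days arrays, against 2.88, 3.10 and 2.84 on the intact arrays. Eif2s3y, also Y-linked, read 7.56, 7.91 and 8.45 on the LR 3 days arrays, against 2.35, 2.35 and 2.44 on the intact arrays. The LR 3 days arrays thus had Y-linked signal and the intact arrays had none, although male mice are named as the source. Whether the mice of the intact arrays were female, or whether samples were exchanged, is not settled, and this touches every difference between the 2 groups. Among these 6 arrays Y-linked signal and group cannot be told apart. Of the 24 arrays, 19 carried the signal, and 2 other groups (LR 7 days and LR+SE 3 days, the resection 7 days after splenectomy) held 1 array without it each. Calls are therefore also given from a fit that took Y-linked signal as a block, whose size rests on those 2 groups, and against SE, the other unresected group, whose 3 arrays all had Y-linked signal but whose mice had no spleen.

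Of 22206 clusters tested, 524 (2.36%) were called between LR 3 days and intact. 310 of them (1.4%) were higher and 214 (0.964%) lower on the LR 3 days arrays, the median difference over all clusters was -0.01, and 2810 clusters had an unadjusted p under 0.05. Without intact array 1 the count of calls was 448, and without any other single array of the 6 it was 249 to 329. All 3 LR 3 days arrays lay above all 3 intact arrays in 2456 clusters (11.1%) and below them in 2065 (9.3%). With Y-linked signal as a block, 275 clusters (1.24%) were called, 218 higher (0.982%) and 57 lower (0.257%). In the same 24-array fit, 1151 clusters (5.18%) were called between LR 3 days and LR 24 h, 695 higher (3.13%) and 456 lower (2.05%), and 349 (1.57%) between LR 3 days and LR 7 days, 213 higher (0.959%) and 136 lower (0.612%). Against SE, 978 (4.4%) were called, 694 higher (3.13%) and 284 lower (1.28%), and after quantile normalisation the split there was 563 and 511. These 4 comparisons share the 3 LR 3 days arrays, so their values are given side by side only. The largest rises were in Saa3, Uty, Lcn2, Marco, Fn1 and Itgam, and the largest falls in Hspa1a, Hspa1b, H2-Eb1, H2-Aa, Cd83 and Dmbt1.

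**Figure D1:**
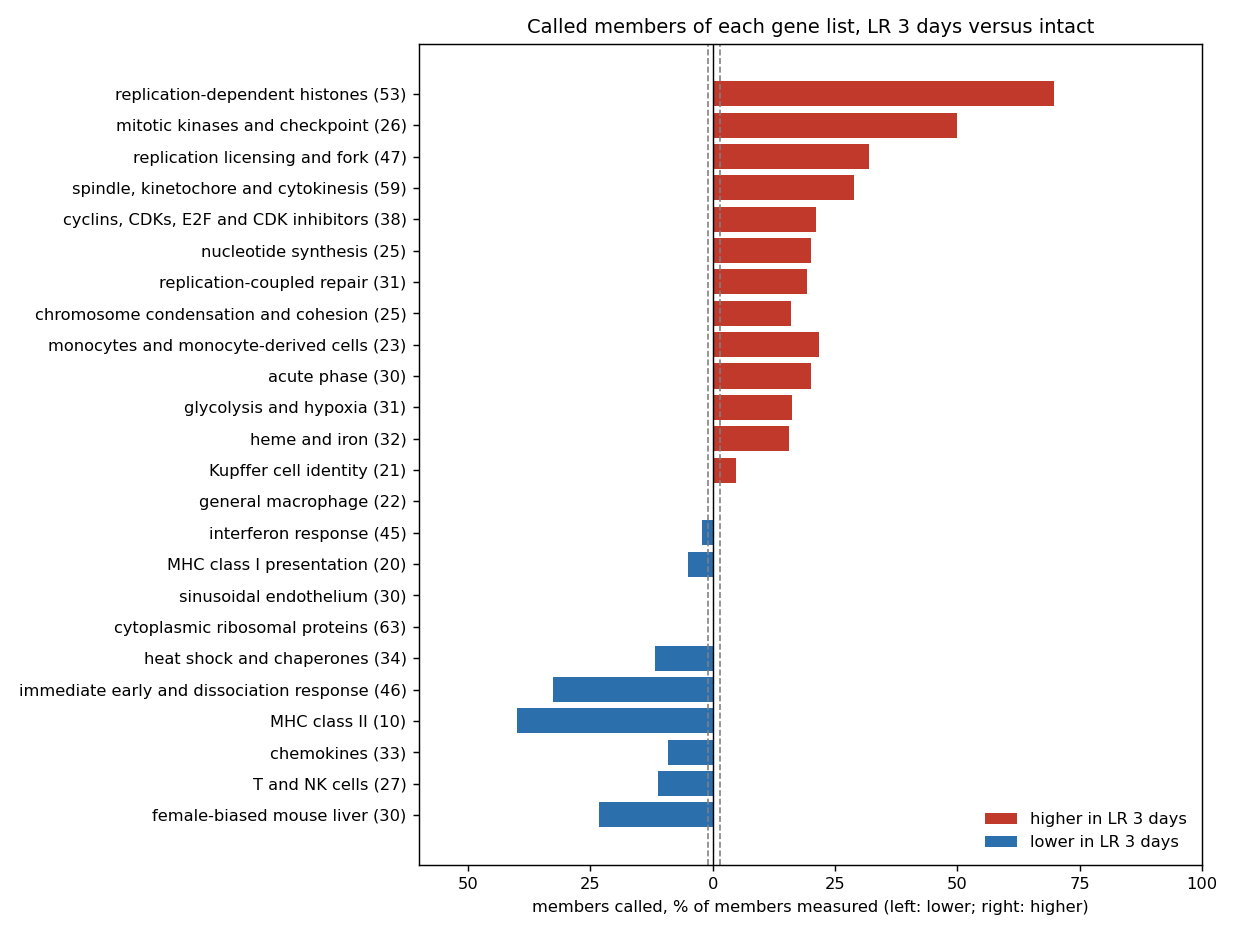
Share of the measured members of each of 24 gene lists (number of members in brackets) that were called higher (red, to the right) or lower (blue, to the left) on the LR 3 days arrays against the intact arrays, in percent, with dashed lines at the shares over all clusters tested (1.4% and 0.964%). Histones, mitotic kinases and replication genes extend furthest to the right, and MHC class II and immediate early and dissociation response genes furthest to the left.

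Genes of cell division made up the broadest group of rises. The paper also saw mitotic figures in hepatocytes at this time, and hepatocyte RNA was present on all arrays. The part of each cell type in the rises of this and the following paragraphs was not tested. Over 7 lists that follow the cycle from replication licensing to cytokinesis, 68 of 251 distinct genes rose and none fell, 230 had a positive difference, and their median was 0.85. All 68 called genes, chosen for this same difference, read higher on each LR 3 days array than on any intact array, as 11.1% of all clusters did.

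DNA replication begins when the MCM helicase is loaded at origins and fired with the GINS complex. Of 47 genes of licensing and the replication fork, 15 rose and none fell, with a median of 1.01 and a positive difference in 46. Mcm6, a subunit of the MCM helicase, read 10.30, 9.82 and 10.10 on the LR 3 days arrays, against 5.95, 5.52 and 5.96 on the intact arrays, a rise of 4.26 ± 0.61 (SE, adjusted p = 0.000863). Mcm2, another subunit of the ring, read 7.76, 8.01 and 8.67 on the LR 3 days arrays, against 4.15, 4.70 and 5.28 on the intact arrays, a rise of 3.44 ± 0.55 (SE, adjusted p = 0.00156). Both genes kept the groups apart by more than 2 log2 units between the nearest arrays. Mcm5 and Mcm4 rose by 3.40 and 2.45, Gins1, of the GINS complex, by 2.02, and Timeless, which holds the fork together, by 2.13. 12 of the 47 rose with the Y-linked block, and 14 did against SE.

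Deoxynucleotides for the fork come from ribonucleotide reductase and thymidylate synthase. Rrm1, the large subunit of the reductase, read 9.35, 9.03 and 9.56 on the LR 3 days arrays, against 5.65, 6.28 and 6.23 on the intact arrays, a rise of 3.26 ± 0.52 (SE, adjusted p = 0.00155). Tyms, thymidylate synthase, read 7.66, 7.68 and 8.05 on the LR 3 days arrays, against 6.0, 6.11 and 6.24 on the intact arrays, a rise of 1.68 ± 0.32 (SE, adjusted p = 0.00657). In both the groups were apart on every array. Dctd (1.64), Atic (1.57) and Shmt2 (1.02), which serve pyrimidine, purine and one-carbon synthesis, made up with Rrm1 and Tyms the 5 of 25 nucleotide synthesis genes that rose.

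The 250 bases upstream of the Mcm6 start (RefSeq, GRCm38.p6, chr1:128359706-128359955, minus strand) are shown because they hold the motif of the E2F factors, which drive S-phase genes, with matches to E2F (TTTNNCGC) and CCAAT in capitals on either strand.
Mcm6 upstream: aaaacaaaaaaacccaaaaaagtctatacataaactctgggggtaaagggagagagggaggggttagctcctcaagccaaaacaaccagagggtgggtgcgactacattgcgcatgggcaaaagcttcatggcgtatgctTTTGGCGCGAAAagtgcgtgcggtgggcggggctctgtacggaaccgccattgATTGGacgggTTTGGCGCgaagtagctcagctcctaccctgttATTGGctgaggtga
Counted from the start, E2F matches begin at -110, -106 and -47, the first 2 overlapping each other on opposite strands, and CCAAT matches at -57 and -14. An E2F match of this spelling was held by 8 of the 37 replication genes with a RefSeq promoter (21.6%) and by 8 of 29 genes of the cyclin and E2F list (27.6%), against 5.46% of the 15691 measured genes with a promoter. Among the called genes alone it was held by 2 of 12 of the replication list (16.7%) and by none of 6 of the cyclin and E2F list. None of the 5 called nucleotide synthesis genes held it. A match describes the letters and is no measured binding site.

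Among the genes that steer entry into the cycle, 8 of 38 rose and none fell. E2f8, a repressing E2F that is itself made in S phase, read 7.94, 8.10 and 8.75 on the LR 3 days arrays, against 3.77, 3.74 and 3.96 on the intact arrays, a rise of 4.44 ± 0.63 (SE, adjusted p = 0.000823). All intact arrays were below the background level in this gene. E2f1, an activating E2F, rose by 1.84, Ccne1, cyclin E1, by 1.56, Ccna2, cyclin A2, by 2.84, Cdk4 by 1.77 and its partner Ccnd3, cyclin D3, by 1.70. The inhibitors Cdkn1a (p21) and Cdkn1b (p27) did not pass and differed by -0.45 and -1.09, whereas Cdkn3, of the same list, rose by 1.38. 4 of the 38 were called with the Y-linked block. Of 31 genes of repair at the fork 6 rose, among them Neil3 (2.05), a glycosylase that opens crosslinks, Rad18 (1.95), which marks stalled forks with ubiquitin, Topbp1 (1.82), which activates the ATR kinase, and Chek1 (1.57), the kinase downstream of it.

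Genes of mitosis rose as well. Of 26 mitotic kinases and checkpoint genes 13 rose, none fell and all 26 had a positive difference, with a median of 1.93. Ube2c, the ubiquitin-conjugating enzyme of the anaphase-promoting complex, read 7.56, 6.88 and 8.13 on the LR 3 days arrays, against 3.32, 3.26 and 3.0 on the intact arrays, a rise of 4.32 ± 0.64 (SE, adjusted p = 0.000988). Plk1, the kinase that drives entry into mitosis, read 8.70, 8.96 and 9.23 on the LR 3 days arrays, against 5.61, 4.38 and 4.13 on the intact arrays, a rise of 4.26 ± 0.65 (SE, adjusted p = 0.00113). Ube2c lay below the background level on every intact array. Ccnb2, cyclin B2, rose by 3.67, Bub1b, of the spindle checkpoint, by 3.02, Aurkb, the kinase of the chromosomal passenger complex, by 2.38, and Mastl, which keeps mitotic phosphatase activity down, by 2.35. Of 59 genes of the spindle, kinetochore and cytokinesis 17 rose and none fell, with a median of 1.19. Kif20a, a kinesin of the central spindle, rose by 4.37, Kif11, which separates the poles, by 2.91, Ect2, which starts the cleavage furrow, by 2.69, Nuf2, of the kinetochore, by 2.55, and Kif2c, a microtubule-depolymerising kinesin, by 2.48. Stmn1, which also destabilises microtubules, rose by 4.65. With the Y-linked block 14 of the 26 and 22 of the 59 rose, and against SE 8 and 7 did. The median of the 26 was 2.92 with that block, whose size rests on the groups that hold arrays with and without the signal. In LR 7 days the array without it, array 2, had a list mean of 6.4, against 5.01 and 5.11. In LR+SE 3 days the array without it, array 1, had 6.17, against 5.31 and 6.35. The larger median with the block therefore reflects those arrays and is no separate support for the rise.

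Mki67, the proliferation antigen Ki-67, read 12.23, 12.60 and 12.80 on the LR 3 days arrays, against 8.42, 8.16 and 7.50 on the intact arrays, a rise of 4.52 ± 0.69 (SE, adjusted p = 0.00114). Its mean was 8.22 at 24 h, 12.54 at 3 days and 11.52 at 7 days after resection, and 11.13 in SE, from which LR 3 days was not called different (adjusted p = 0.300). Ki-67 coats chromosomes in mitosis, and of 25 genes of chromosome condensation and cohesion 4 rose, the others being Asf1b (3.07), a histone chaperone, Ncaph (1.94) and Smc4 (1.81), both of condensin. Birc5, survivin, rose by 1.60 and Ckap2, a spindle protein, by 2.28.

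Ube2c and Mki67 are shown upstream of their starts because both hold the element CHR (TTTGAA) of late cell-cycle genes together with CCAAT boxes, all marked in capitals on either strand. The Ube2c stretch is chr2:164769679-164769928 on the plus strand and that of Mki67 is chr7:135716380-135716629 on the minus strand, of GRCm38.p6.
Ube2c upstream: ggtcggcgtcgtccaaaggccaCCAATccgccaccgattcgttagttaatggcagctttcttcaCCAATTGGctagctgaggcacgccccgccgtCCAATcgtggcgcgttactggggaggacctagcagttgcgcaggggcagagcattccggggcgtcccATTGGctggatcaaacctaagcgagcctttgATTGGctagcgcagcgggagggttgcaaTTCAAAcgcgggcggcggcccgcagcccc
Mki67 upstream: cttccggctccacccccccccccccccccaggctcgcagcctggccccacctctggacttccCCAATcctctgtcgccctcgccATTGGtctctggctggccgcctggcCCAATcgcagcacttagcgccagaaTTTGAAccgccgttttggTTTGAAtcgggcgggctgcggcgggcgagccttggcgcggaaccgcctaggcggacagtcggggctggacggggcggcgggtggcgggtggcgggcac
In Ube2c the CHR begins at -29 and there are 6 CCAAT matches, of which a pair on opposite strands overlaps. In Mki67 CHR matches begin at -116 and -98 and CCAAT matches at -188, -166 and -141. CCAAT was held by 15 of 21 mitotic kinase and checkpoint genes with a promoter (71.4%) and 31 of 50 spindle genes (62%), against 36% of all measured genes, and CHR by 6 of 21 (28.6%) and 13 of 50 (26%), against 14.2%. Among the called genes of these lists alone, CCAAT was held by 9 of 11 and 8 of 14, and CHR by 3 of 11 and 6 of 14.

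**Figure D2:**
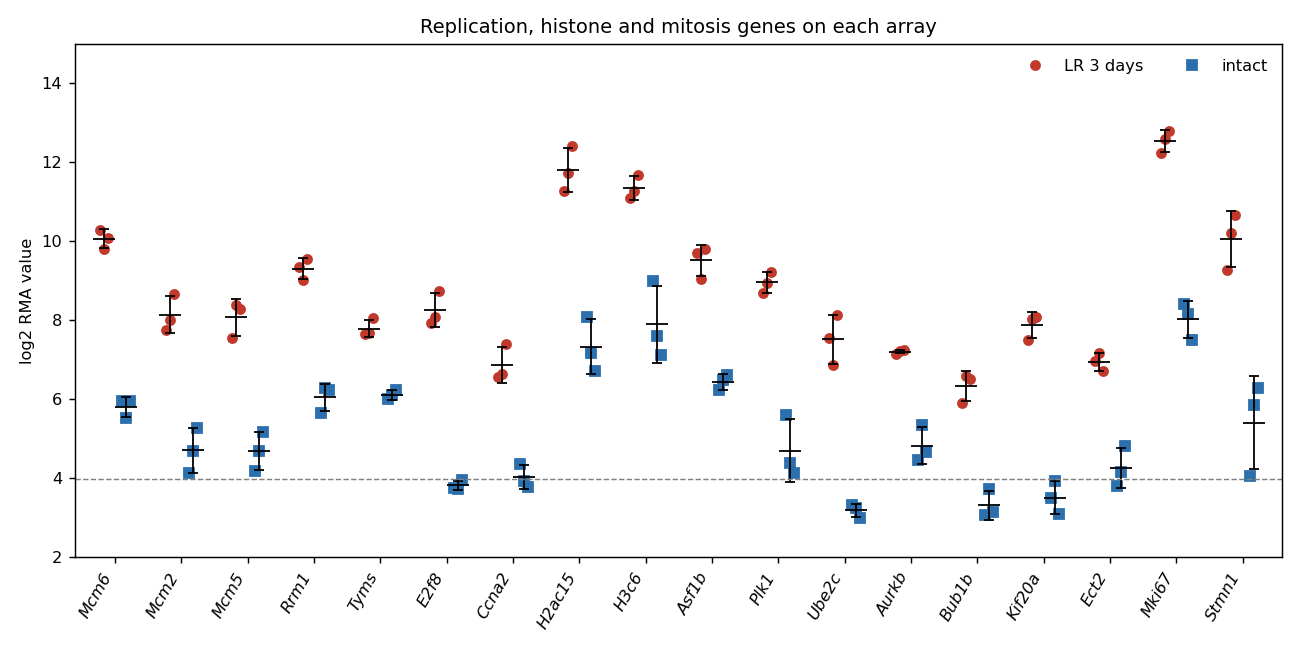
RMA log2 value of 18 cell-cycle genes on each array, with the LR 3 days arrays (red circles) left of the intact arrays (blue squares) for every gene, horizontal lines at the group means, whiskers of 1 SD (n = 3 each) and a dashed line at the background level of 3.98. For every gene drawn, all 3 LR 3 days arrays lie above all 3 intact arrays, which was a condition for naming a called gene.

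Histone genes of the replication-dependent clusters rose in the largest share of any list. Their messages are made in S phase to package new DNA and mostly end in a stem-loop in place of a poly(A) tail. Of 53 measured, 37 rose and none fell, with a median of 2.33 and a positive difference in 50. H2ac15, an H2A gene, read 11.29, 11.74 and 12.41 on the LR 3 days arrays, against 8.09, 7.18 and 6.73 on the intact arrays, a rise of 4.48 ± 0.76 (SE, adjusted p = 0.00281). H3c6, an H3 gene, read 11.09, 11.28 and 11.68 on the LR 3 days arrays, against 9.0, 7.61 and 7.12 on the intact arrays, a rise of 3.44 ± 0.56 (SE, adjusted p = 0.00172). The intact arrays were themselves far apart here, with intact array 1 the highest in both genes. By family, 9 of 10 H3 genes rose (median 3.13), 10 of 13 H2a genes (2.85), 8 of 11 H4 genes (1.85), 7 of 15 H2b genes (1.79) and 3 of 4 H1 genes (1.30). Copies of these genes are near-identical and can share signal, and 2 clusters had the same values throughout, so the count stands for at most 36 distinct rows. With the Y-linked block 11 of the 53 rose, at a list median of 2.21. Against SE 2 were higher and 1 lower: H2ac15 averaged 11.81 on the LR 3 days arrays and 10.43 on the SE arrays (adjusted p = 0.381). The fork and spindle lists had 14 and 7 calls in that comparison.

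The upstream stretch of H2ac15 (GRCm38.p6, chr13:21753913-21754162, minus strand) is shown because CCAAT, in capitals, was the commonest of the searched motifs among the histones, at 39 of 48 promoters (81.2%).
H2ac15 upstream: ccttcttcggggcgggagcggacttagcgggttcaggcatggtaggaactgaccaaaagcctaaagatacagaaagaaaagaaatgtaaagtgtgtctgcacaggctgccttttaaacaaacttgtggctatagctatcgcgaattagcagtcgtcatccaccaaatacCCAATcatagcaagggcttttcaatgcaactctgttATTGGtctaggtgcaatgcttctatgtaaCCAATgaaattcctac
The matches begin at -81, -45 and -16. CHR was held by 20 of the 48 (41.7%) and E2F by 13 (27.1%), in the same 250-base windows. Of all measured genes with a promoter 36% held CCAAT, 14.2% CHR and 5.46% E2F. Among the 36 called histones with a promoter, CCAAT was held by 28 (77.8%), CHR by 14 (38.9%) and E2F by 10 (27.8%).

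Leaving out any single array of the 6 left 21 to 36 histone calls, the lowest without LR 3 days array 3 and without intact array 3. In the same way 10 to 12 replication calls, 6 to 10 mitotic kinase calls and 7 to 12 spindle calls were left, the lowest of the last 2 without LR 3 days array 3. Both scalings tried kept every one of these 4 lists above 0 in the median. Without single arrays the cyclin and E2F list had 2 to 5 calls in place of 8 and fork repair 2 to 6 in place of 6. Nucleotide synthesis had 2 to 4 in place of 5, and chromosome condensation 3 to 5 in place of 4. Dctd, Cdk4, Ccne1, Nuf2 and Kif2c each lost their call with any single array of the 6 left out, and Dctd and Cdk4 also with median centring.

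Cell growth genes moved less. None of 63 cytoplasmic ribosomal protein genes was called, with a median of 0.53, which turned to -0.36 with the Y-linked block. Of 82 genes of the respiratory chain and ATP synthase, Ndufv1, of complex I, alone rose (1.05), with a median of 0.63. It lost its call with median centring and without any single array other than intact array 3. Against SE 21 of the 63 ribosomal and 37 of the 82 respiratory genes were higher. Of 31 glycolysis and hypoxia genes 5 rose. Pgk1, phosphoglycerate kinase, read 10.45, 10.96 and 10.36 on the LR 3 days arrays, against 7.52, 8.62 and 8.50 on the intact arrays, a rise of 2.38 ± 0.48 (SE, adjusted p = 0.00903). Pkm (pyruvate kinase), Pgam1, Tpi1 and Eno1b, all enzymes of the same pathway, rose by 2.10, 2.09, 1.71 and 1.57. None of the 31 passed with the Y-linked block or without LR 3 days array 2, and 1 to 4 did without any other single array.

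Kupffer cells and monocytes are told apart by their surface genes. Of 23 genes of monocytes and monocyte-derived cells 5 rose and none fell, with a median of 1.22 and a mean level of 8.68 to 9.17 on the LR 3 days arrays and 6.98 to 7.23 on the intact arrays. Fn1, fibronectin, which hepatocytes also make, read 12.99, 13.33 and 13.28 on the LR 3 days arrays, against 9.03, 6.83 and 6.67 on the intact arrays, a rise of 5.69 ± 0.91 (SE, adjusted p = 0.00157). Ccr2, the receptor that brings monocytes out of marrow, read 8.57, 9.66 and 9.45 on the LR 3 days arrays, against 6.04, 6.50 and 6.35 on the intact arrays, a rise of 2.93 ± 0.55 (SE, adjusted p = 0.00566). Ly6c2, the defining marker of inflammatory monocytes, read 7.68, 7.97 and 8.87 on the LR 3 days arrays, against 8.25, 5.27 and 7.34 on the intact arrays. The groups overlapped in Ly6c2, and it was not called (difference 1.22, adjusted p = 0.733). Itgam (CD11b) rose by 5.60, Gda by 3.82 and Cx3cr1, the fractalkine receptor, by 3.47, while Plac8 (2.95) and Chil3 (3.0) did not pass the test. None of the 23 was called with the Y-linked block, at a list median of 1.19, and only Fn1 was against SE. Leaving out LR 3 days array 2, LR 3 days array 3 or intact array 1 gave 3 calls in place of 5.

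Marco, a scavenger receptor that binds bacteria and particles, read 14.53, 14.87 and 13.84 on the LR 3 days arrays, against 6.40, 8.46 and 8.46 on the intact arrays, a rise of 6.64 ± 0.82 (SE, adjusted p = 0.000236). It averaged 12 in SE, from which LR 3 days was not called different (adjusted p = 0.106). Clec4e (Mincle, which senses dead cells and mycobacterial lipids) rose by 3.98 and Olr1, a receptor of oxidised lipoprotein, by 3.31, so that 3 of 25 scavenger receptors and lectins rose. Of these only Marco was called with the Y-linked block, Clec4e lost its call with any single array of the 6 left out, and Olr1 lost it without LR 3 days array 2 or intact array 3. Quantile normalisation gave 5 of the 25 higher and 2 lower. Lgals1, galectin-1, read 11.10, 12.40 and 12.94 on the LR 3 days arrays, against 8.62, 7.09 and 7.82 on the intact arrays, a rise of 4.30 ± 0.59 (SE, adjusted p = 0.000629). With Anxa2 (2.38) it made up the 2 of 24 genes of lipid-associated macrophages that rose, and Trem2 and Gpnmb, the names most tied to that state, differed by 2.82 (adjusted p = 0.0758) and 3.06 (adjusted p = 0.202). Anxa2 lost its call with the Y-linked block and without any single array other than intact array 3, while Lgals1 kept it in all these fits. None of 22 general macrophage genes and none of 28 efferocytosis genes was called.

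Ednrb and Serpinb2 were also among the 12 largest rises. Of 29 protease inhibitor genes 1 rose and none fell, with a median of 0.02. Ednrb, the endothelin B receptor, read 10.58, 10.87 and 11.13 on the LR 3 days arrays, against 5.54, 6.45 and 5.58 on the intact arrays, a rise of 5.0 ± 0.53 (SE, adjusted p = 5.97e-05). Serpinb2, an inhibitor of plasminogen activation, read 9.64, 11.64 and 10.46 on the LR 3 days arrays, against 4.06, 5.94 and 5.03 on the intact arrays, a rise of 5.57 ± 0.82 (SE, adjusted p = 0.000988). Serpinb2 averaged 13.78 at 24 h, 10.58 at 3 days and 5.49 at 7 days after resection, and Ednrb 13.02, 10.86 and 8.45, so both were highest at 24 h.

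Acute phase proteins are secreted in inflammation, most of them by hepatocytes, and macrophages make Saa3 and Lcn2 themselves. Of 30 such genes 6 rose and none fell, with a median of 1.96 and a mean level of 10.21 to 10.95 on the LR 3 days arrays and 7.60 to 8.74 on the intact arrays. Saa3, a serum amyloid A of macrophages, read 16.79, 17.53 and 16.57 on the LR 3 days arrays, against 6.94, 7.63 and 6.82 on the intact arrays, a rise of 9.84 ± 1.26 (SE, adjusted p = 0.000324). Hp, haptoglobin, which binds free haemoglobin, read 14.28, 14 and 14.91 on the LR 3 days arrays, against 11.36, 8.77 and 9.71 on the intact arrays, a rise of 4.45 ± 0.77 (SE, adjusted p = 0.00304). In both the lowest LR 3 days array stood above the highest intact array by more than 2 log2 units. Lcn2, which withholds iron from bacteria, rose by 6.75, Orm1 and Orm2 by 5.20 and 4.58, and Hpx, hemopexin, by 3.70. Of the 35 hepatocyte genes 1 rose (Arg1, 5.11, which macrophages also make) and Ces1c, Ces1d and Fabp1 fell, and the part of hepatocyte RNA in these values was not tested. With the replicate number as a block the adjusted p of Fabp1 was 0.0677. Without single arrays 3 to 5 of the 30 acute phase genes (3 without intact array 2) and 0 to 3 of the 35 hepatocyte genes were called. With the Y-linked block Saa3 alone of the 30 was called, at a list median of 0.85, and against SE 9 were higher, where Alb averaged 19.86 on the LR 3 days arrays and 16.10 on the SE arrays.

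A pair of genes of iron uptake, Tfrc and Steap3, rose too. Tfrc, the transferrin receptor, read 10.16, 10.19 and 10.32 on the LR 3 days arrays, against 6.44, 7.95 and 7.72 on the intact arrays, a rise of 2.85 ± 0.54 (SE, adjusted p = 0.00603). Steap3, the ferrireductase that works with it in the endosome, read 6.55, 6.32 and 7.19 on the LR 3 days arrays, against 5.12, 4.63 and 4.09 on the intact arrays, a rise of 2.08 ± 0.27 (SE, adjusted p = 0.00038). Both had lower means at the other times: Tfrc 7.30 at 24 h, 10.22 at 3 days and 7.73 at 7 days, and Steap3 4.80, 6.69 and 5.47. Hamp, hepcidin, differed by -0.93 and was not called, and Slc40a1, ferroportin, was at the top of the scale on all 6 arrays. In the list of 32 heme and iron genes 5 rose and none fell, with Lcn2, Hp and Hpx as the others. Under the Y-linked block 2 of the 32 were called, and Tfrc lost its call while Steap3 did not.

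Genes of antigen presentation through MHC class II were lower. Class II molecules load peptides for CD4+ T cells and are carried by dendritic cells, B cells and macrophages. Of 10 genes 4 fell, all 10 had a negative difference, the median was -2.64, and the mean level was 7.57 to 7.77 on the LR 3 days arrays and 10.20 to 10.67 on the intact arrays. H2-Eb1, a class II beta chain, read 10.07, 9.91 and 10.45 on the LR 3 days arrays, against 16.21, 16.26 and 15.85 on the intact arrays, and it fell by 5.96 ± 1.30 (SE, adjusted p = 0.015). H2-Ab1, the beta chain of I-A, read 10.57, 10.46 and 10.59 on the LR 3 days arrays, against 15.31, 15.74 and 14.67 on the intact arrays, and it fell by 4.70 ± 0.90 (SE, adjusted p = 0.00609). H2-Aa, the alpha chain of I-A, read 13.58, 13.61 and 14.53 on the LR 3 days arrays, against 18.58, 19.77 and 19.49 on the intact arrays, and it fell by 5.37 ± 1.03 (SE, adjusted p = 0.00629). The groups did not overlap in any of the 3, and the intact values of H2-Aa were near the top of the scale. H2-DMb1, which edits the peptide load, fell by 3.95, and Ciita, the master regulator of class II genes, differed by -2.45 (adjusted p = 0.0751). None of the 10 was called with the Y-linked block (median -2.35) or against SE (median -1.17), and without any one array other than intact array 1 the 4 calls became 2.

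Other cells that carry class II are given by their markers. Of 20 dendritic cell genes none was called, at a mean level of 5.05 to 5.19 on the LR 3 days arrays and 4.96 to 5.28 on the intact arrays. Of 18 B and plasma cell genes 2 fell, Jchain (3.60), the joining chain of secreted antibody, and Ebf1 (1.45), an early B cell factor, at 4.31 to 4.50 on the LR 3 days arrays and 4.65 to 5.12 on the intact arrays, while Ms4a1 (CD20) was below background on all 6. Neither Jchain nor Ebf1 was called with the Y-linked block or against SE. Of 27 T and NK cell genes Ccl5, Gzmb and Ifng fell, and 26 had a negative difference, at 3.63 to 3.76 on the LR 3 days arrays and 4.09 to 4.41 on the intact arrays. Cd3e, a chain of the T cell receptor complex, read 3.77, 3.77 and 3.76 on the LR 3 days arrays, against 5.68, 3.92 and 4.83 on the intact arrays. The part of these cells in the class II values was not tested.

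Cd83, which keeps class II on the surface of activated cells, read 10.09, 10.25 and 9.92 on the LR 3 days arrays, against 15.22, 15.82 and 14.88 on the intact arrays, and it fell by 5.22 ± 0.60 (SE, adjusted p = 0.000104). It remained called with the Y-linked block (difference -4.40, adjusted p = 0.0134) and against SE, where the mean was 13.66. Rel, an NF-kB subunit, fell by 1.41, and with Cd83 made up the 2 of 42 inflammatory effectors and cytokines that fell; none rose. Il6 read 11.49, 10.51 and 10.53 on the LR 3 days arrays, against 11.57, 15.09 and 13.25 on the intact arrays, and its difference of -2.46 was not called. Tnf differed by 0.08 and Il1b by -1.19, neither of them called. Among 33 chemokines Cxcl9 and Ccl5, which draw T cells, and Ccl22 fell by 3.53, 2.61 and 1.06, with Ccl22 at or below the background level on every array of both groups. None of the 33 was called without LR 3 days array 2, 1 was without LR 3 days array 3, intact array 1 or intact array 3, and 2 were without intact array 2. Ccl5 lost its call with any single array of the 6 left out. With the Y-linked block Cxcl9 lost its call while Ccl5 and Ccl22 kept theirs. The 3 chemokines called in that fit thus included another that was not called without the block. Rsad2, an antiviral enzyme, was the only 1 of 45 interferon response genes called, falling by 2.80. It lost the call with the Y-linked block and with any single array of the 6 left out, and the list's median was 0.26, or -0.20 with the Y-linked block.

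Hepatocytes re-enter the cycle under growth factors such as HGF and the EGF receptor ligands. Of 34 regeneration growth factors none rose and 2 fell. Hbegf, the heparin-binding EGF-like factor, read 10.22, 10.21 and 10.90 on the LR 3 days arrays, against 12.46, 14.40 and 13.61 on the intact arrays, and it fell by 3.05 ± 0.45 (SE, adjusted p = 0.000988). Bmp6, which sets hepcidin in hepatocytes, fell by 1.72. Hgf, hepatocyte growth factor, read 8.50, 9.06 and 9.41 on the LR 3 days arrays, against 8.02, 9.77 and 9.20 on the intact arrays. Its mean was 12.16 at 24 h, 8.99 at 3 days and 8.93 at 7 days. None of the 34 was called with the Y-linked block, so Hbegf and Bmp6 lost their calls.

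Hspa1a and Hspa1b had the largest falls of all. HSP70, which they encode, refolds damaged proteins and is made within minutes of heat or protein stress. Hspa1a, an inducible HSP70, read 7.19, 8.72 and 8.41 on the LR 3 days arrays, against 14.84, 15.78 and 15.65 on the intact arrays, and it fell by 7.32 ± 0.65 (SE, adjusted p = 8.53e-06). Hspa1b, its neighbour and near-identical copy, read 7.05, 7.76 and 7.73 on the LR 3 days arrays, against 14.20, 15.66 and 14.63 on the intact arrays, and it fell by 7.31 ± 0.72 (SE, adjusted p = 2.15e-05). The probes of this pair may read both genes, so they count as 1 observation. Means of Hspa1a were 10.61 at 24 h, 8.10 at 3 days and 10.42 at 7 days after resection, and 14.19 in SE (LR 3 days versus SE adjusted p = 6.67e-05). Of 34 heat shock genes and chaperones 4 fell and none rose, with a median of -0.34. Hspb1, a small heat shock protein, fell by 1.80 and Dnajb6, a co-chaperone, by 1.49. Hsph1 (-3.51), Dnajb4 (-2.33) and Hsp90aa1 (-2.18) differed by more than that without passing. With the Y-linked block Hspa1a and Hspa1b were the 2 called, and the median of the list turned to 0.15.

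The stretch upstream of Hspa1a (GRCm38.p6, chr17:34972157-34972406, minus strand) is shown because it carries the core of a heat shock element, GAANNTTC, in capitals with a CCAAT match.
Hspa1a upstream: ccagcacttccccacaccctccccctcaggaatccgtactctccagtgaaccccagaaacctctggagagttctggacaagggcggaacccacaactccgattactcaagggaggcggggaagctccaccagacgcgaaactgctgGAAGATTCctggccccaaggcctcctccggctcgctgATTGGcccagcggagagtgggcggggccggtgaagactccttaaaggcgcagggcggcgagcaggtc
The core begins at -104. It was held by 6 of 30 heat shock genes with a promoter (20%), the 4 called genes among them, of which Hspa1a and Hspa1b count as 1 observation, against 6.02% of measured genes. A longer element, the core followed after 2 further bases by another GAA on the same strand, was held by 2 of the 30 (6.67%) and by 1 of the 4, against 0.363% of measured genes.

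Genes of the immediate early and dissociation response, which cells switch on within minutes of a stimulus and also while a tissue is digested into single cells, were the largest group of falls. Of 46 such genes 15 fell and none rose, with a median of -1.11, and their mean level was 11.28 to 11.51 on the LR 3 days arrays and 12.39 to 12.64 on the intact arrays. Klf2, a transcription factor that quiets myeloid cells, read 9.35, 10.55 and 10.85 on the LR 3 days arrays, against 13.17, 13.57 and 13.76 on the intact arrays, and it fell by 3.25 ± 0.48 (SE, adjusted p = 0.000988). Klf4, a related factor, read 7.98, 8.12 and 9.12 on the LR 3 days arrays, against 11.04, 11.51 and 11.75 on the intact arrays, and it fell by 3.02 ± 0.34 (SE, adjusted p = 0.000102). Atf3, a stress-induced member of the ATF family, read 14.56, 14.88 and 14.84 on the LR 3 days arrays, against 16.93, 17.26 and 16.99 on the intact arrays, and it fell by 2.30 ± 0.37 (SE, adjusted p = 0.00163). In none of the 3 did the groups overlap. Jun fell by 2.40, Ier5 by 2.41, Btg1 and Btg2, both brakes on the cell cycle, by 2.69 and 2.07, Plk2 by 2.27, Ppp1r15a, which relieves the block on translation, by 1.75, and Mcl1, which guards against apoptosis, by 1.43. The best known of the group did not pass: Fos differed by -1.03, Egr1 by -0.48 and Dusp1 by 0.06, at the top of the scale. With the Y-linked block 10 of the 46 fell, against SE 17 fell, against LR 24 h 5 fell and 2 were higher, and against LR 7 days 2 fell. Leaving out single arrays left 6 to 13 calls in place of 15. The part of the digestion, which both groups went through, in these values was not tested.

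**Figure D3:**
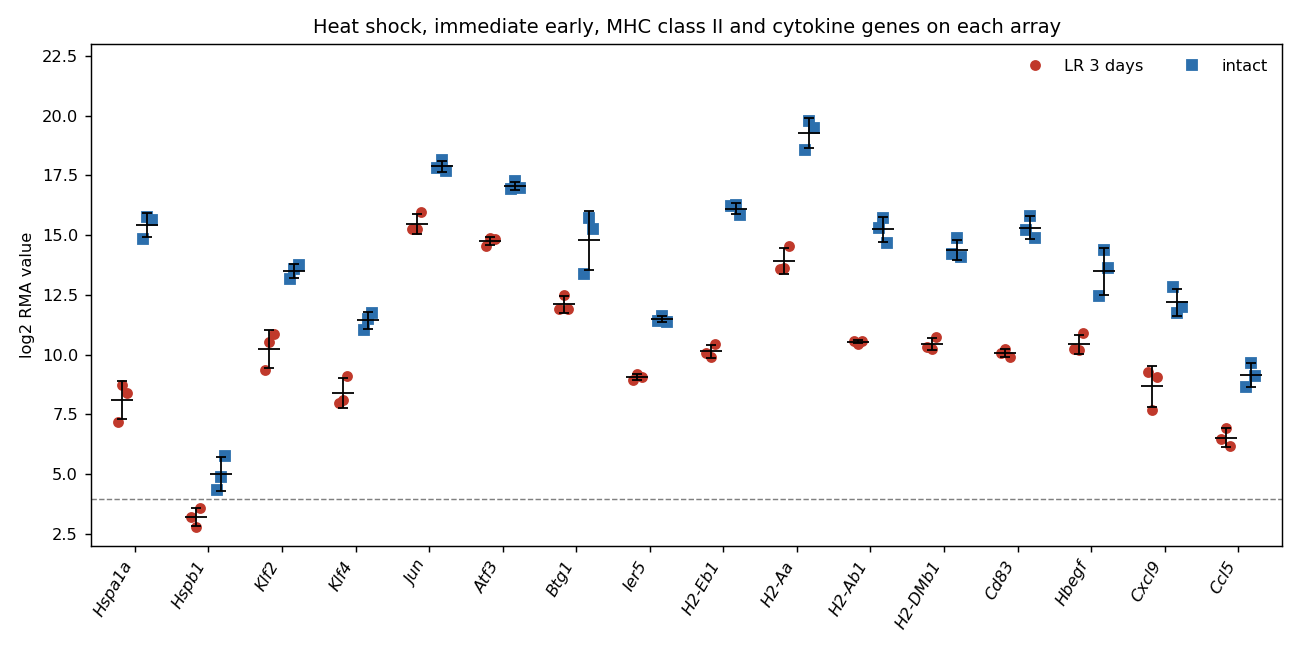
RMA log2 value of 16 genes that fell, on each array, with the LR 3 days arrays (red circles) left of the intact arrays (blue squares) for every gene, horizontal lines at the group means, whiskers of 1 SD (n = 3 each) and a dashed line at the background level of 3.98. Hspa1a reads 7.19 to 8.72 on the LR 3 days arrays and 14.84 to 15.78 on the intact arrays. In no gene drawn do the groups overlap, which was a condition for naming a called gene.

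Genes that mouse livers express by sex moved beside the Y-linked signal. Of 30 genes known to be female-biased in mouse liver 7 fell and none rose, at a mean level of 4.0 to 4.31 on the LR 3 days arrays and 4.53 to 5.25 on the intact arrays. Cyp3a41a, a female-specific steroid hydroxylase, read 3.01, 2.63 and 2.84 on the LR 3 days arrays, against 7.07, 4.30 and 6.99 on the intact arrays, and it fell by 3.29 ± 0.54 (SE, adjusted p = 0.00201). Cyp2b9, another female-biased P450, read 4.67, 3.29 and 4.2 on the LR 3 days arrays, against 7.09, 5.29 and 6.05 on the intact arrays, and it fell by 2.09 ± 0.41 (SE, adjusted p = 0.00763). Cyp3a41a was below the background level on all 3 LR 3 days arrays. On the other 18 arrays the highest reading of Cyp3a41a was 5.51, on LR+SE 3 days array 1, which also lacked Y-linked signal, whereas LR 7 days array 2, the other array without it, read 2.63. Cyp2a4, Cyp3a41b, Cyp3a16 and Sult2a1 were among the other 5 called. Of 77 cytochrome P450 genes 9 fell, several of them of this list. Only 1 of the 30 and 2 of the 77 were called with the Y-linked block, and Cyp3a41a, Cyp2b9 and Cyp2a5 lost their calls. Against SE, whose arrays had Y-linked signal, none of the 30 was lower and 1 was higher (median 0.11), and of the 77, 4 were higher and 1 lower. Without single arrays 4 to 9 of the 30 were called, 4 of them without LR 3 days array 2 and without intact array 3. Cyp2a5, a coumarin hydroxylase, read 3.84, 3.28 and 4.53 on the LR 3 days arrays, against 9.57, 7.50 and 8.52 on the intact arrays. None of 26 male-biased liver genes was called. Of 7 X-linked genes that escape inactivation Ddx3x fell by 1.84 and none had a positive difference (median -0.78, or 0.15 with the Y-linked block). Their mean level was 9.7 to 9.78 on the LR 3 days arrays, 10.3 to 10.94 on the intact arrays and 10.05 to 10.31 on the SE arrays. LR 7 days array 2 had 11.29, against 9.28 and 9.48 in its group. LR+SE 3 days array 1 had 10.57, against 10.06 and 9.92. Copies of the Cyp3a genes can share signal.

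**Figure D4:**
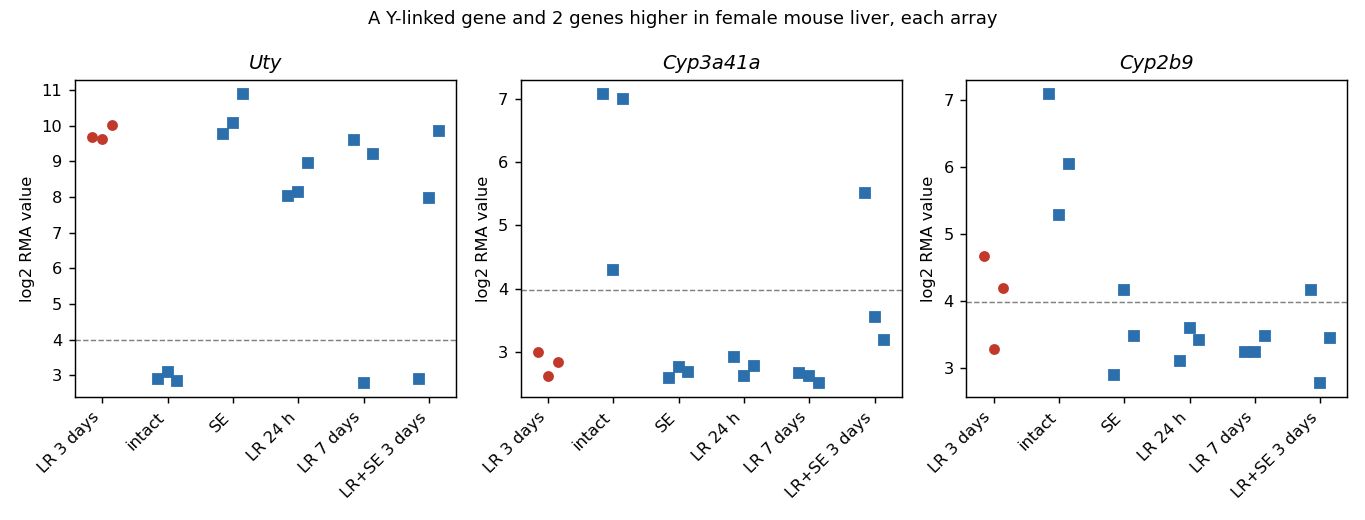
RMA log2 value of Uty (Y-linked), Cyp3a41a and Cyp2b9 (both higher in female mouse liver) on each array of 6 groups, with the LR 3 days arrays in red and a dashed line at the background level of 3.98. The 3 intact arrays, LR 7 days array 2 and LR+SE 3 days array 1 read between 2.79 and 3.10 in Uty, and the intact arrays are the highest in both P450 genes except that LR+SE 3 days array 1 reads 5.51 in Cyp3a41a, above intact array 2 at 4.30.

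Against LR 24 h, a comparison in which all arrays had Y-linked signal, the cycle lists were again higher: 22 of 47 replication genes, 14 of 26 mitotic kinases, 27 of 59 spindle genes and 37 of 53 histones, with none lower. Interferon response genes, nearly level against intact, were higher in 37 of 45 (median 2.55), and MHC class I genes in 9 of 20. H2-Eb1 averaged 7.83 at 24 h, 10.15 at 3 days and 12.66 at 7 days. Acute phase genes were lower than at 24 h in 16 of 30 (median -2.87), neutrophil genes in 11 of 29 (S100a8 averaged 15.27 at 24 h, 8.29 at 3 days and 7.87 at 7 days) and sinusoidal endothelial genes in 13 of 30. The part of neutrophil and endothelial RNA in this comparison was not tested. Without LR 24 h array 2, 513 clusters were called in place of 1151.

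Against LR 7 days the cycle lists had few calls: 6 of 47 replication genes, none of 26 mitotic kinases and 1 of 53 histones were higher. Without LR 7 days array 2, which had no Y-linked signal, 10, 8 and 1 were, of 930 clusters called in place of 349, whereas without LR 3 days array 3 only 63 clusters were called. Mcm6 averaged 6.25 at 24 h, 10.07 at 3 days and 8.18 at 7 days. Mcm2, Mcm5, Gins1 and Kif20a were higher at 3 days than at both other times.

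**Figure D5:**
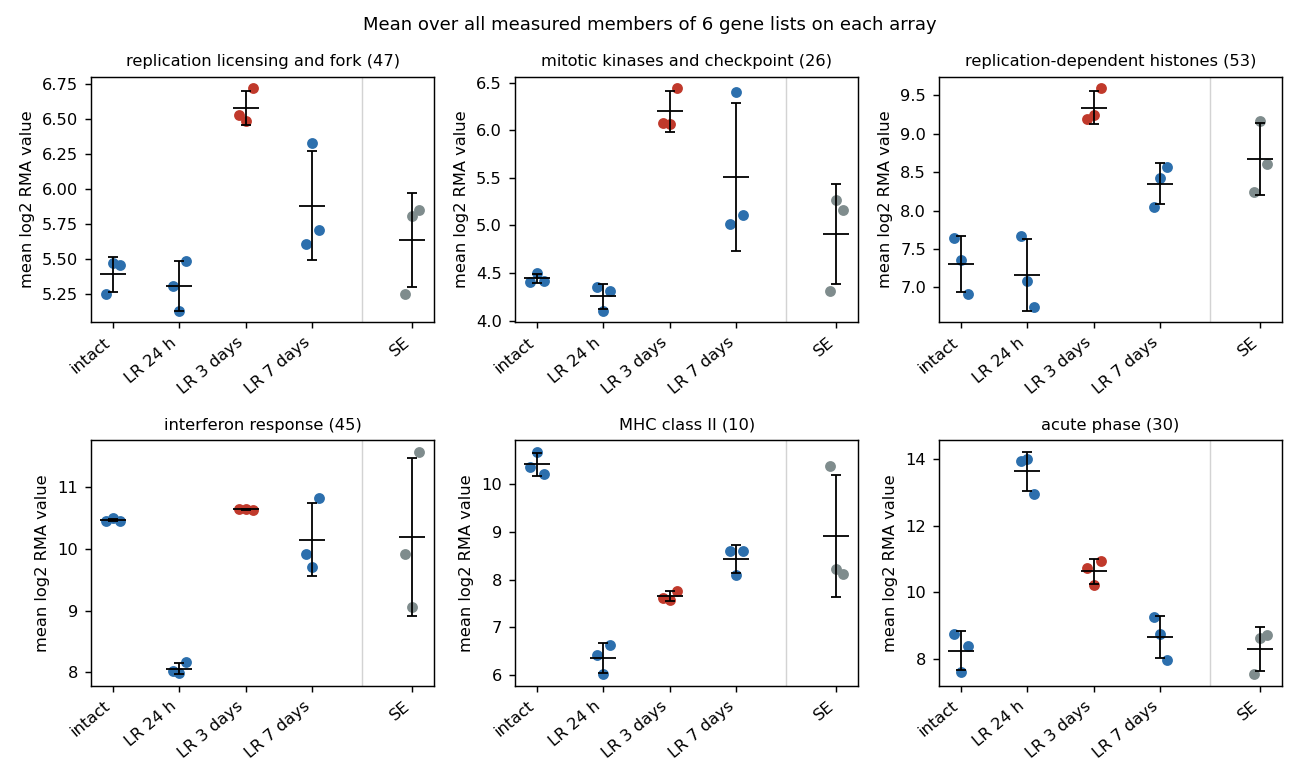
Mean RMA log2 value over all measured members of 6 gene lists (number of members in brackets) on each array of the intact, LR 24 h, LR 3 days (red) and LR 7 days groups in order of time, with SE in grey at the right, horizontal lines at the group means and whiskers of 1 SD (n = 3 each). The replication and histone lists are highest on the LR 3 days arrays. In the mitotic list LR 7 days array 2, which had no Y-linked signal, lies among them. The interferon and MHC class II lists are lowest and the acute phase list highest on the LR 24 h arrays.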

How the data were processed

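F4/80+ liver cells of 8 groups of 3 samples were hybridised to 24 Clariom S mouse arrays. The authors deposited RMA-normalised log2 values per transcript cluster, made with Transcriptome Analysis Console (version not given in the sources used here), and these values were used as deposited. Of 28846 rows, 6640 control rows were left out, 19572 of the 22206 clusters tested carried 1 gene symbol in the platform annotation and 2634 none, and 49.0% had a mean below background. Arrays have no read depth, so the number of arrays, 3 in each group, limits the precision. Correlations within groups had a median of 0.955, and between groups of 0.881. For single arrays the median within the group was 0.985 to 0.986 in LR 3 days and 0.96 to 0.971 in intact.

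Groups followed the sample titles. limma 3.58.1 (R 4.3.3) was fitted to all 24 arrays with 1 mean per group and the moderated test, p-values were adjusted over all clusters by Benjamini and Hochberg, and an adjusted p under 0.05 made a call. The fit was tested on simulated data. Tables, motif searches and figures used Python 3.11.15, numpy 2.4.6, pandas 2.3.3 and matplotlib 3.10.9. The comparison and the gene lists were chosen with earlier results of these data known. Genes were named by a rule: the 12 largest rises and the 12 largest falls among called genes whose groups did not overlap, up to 6 such members of each list, and uncalled members as their counterpart. Cdkn3 was named in addition and is not among the 139 genes of the later counts. Promoters came from the RefSeq table of GRCm38.p6, in which 15691 measured symbols were found. Both strands were searched for the letters given in the text.

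Intact and LR 3 days arrays of the same number deviated together from their group means (r of 0.195, 0.448 and 0.344), which met the criterion used for pairing, 0.1 in every pair. Over all groups 28 of 84 same-numbered pairs exceeded 0.1, and intact with SE met the criterion too (0.201, 0.201 and 0.141). The pairing comes from these correlations, not from the labels. Alternatives were the 2 groups alone, the replicate number as a block, quantile normalisation, median centring, a background filter, array weights, a trended and robust prior, Y-linked signal as a block and each array left out. A 2-group fit with the replicate block was chosen after seeing the data.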

Additional observations from a re-analysis of the deposited data

Results flagged for a closer look

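Genes named in the report whose level at 3 days differed from that at both 24 h and 7 days after resection, each by the limma test of the difference itself, are given here with both differences (LR 3 days minus the other time, log2), as values without weighing. They were chosen for these differences out of 139 named genes, and LR 7 days array 2 had no Y-linked signal.

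10 genes were higher at 3 days than at both times. Of the replication and mitosis lists, Mcm2 was higher by 2.91 than at 24 h and by 2.61 than at 7 days, Mcm5 by 3.04 and 2.22, Gins1 by 1.87 and 1.73, E2f1 by 2.59 and 1.36, and Kif20a by 4.34 and 2.80. Shmt2, of one-carbon metabolism, was higher by 0.71 and 1.20. Tfrc, which takes up transferrin, was higher by 2.92 and 2.49, and its partner Steap3 by 1.89 and 1.22. Naglu, a lysosomal enzyme that breaks down heparan sulfate, was higher by 1.06 and 1.37. Col3a1, a fibrillar collagen of stellate cells and fibroblasts, was higher by 1.57 and 1.67, reading 4.49, 6.19 and 5.34 on the LR 3 days arrays.

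Plk2 was lower at 3 days than at both times, by -1.82 against 24 h and -1.96 against 7 days. Serpinb2, Ednrb and Hp lay between the times. Serpinb2 differed by -3.20 from 24 h and by 5.10 from 7 days, Ednrb by -2.17 and 2.41, and Hp by -4.47 and 3.81.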

How the results depend on the processing

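The 524 calls against intact became 985 with the arrays of the 2 groups alone (457 of the 524 called in the same direction), 1250 with those arrays and the replicate block (485 shared, chosen after seeing the data), 1531 with array weights and 275 with Y-linked signal as a block (154 shared). With the replicate block over all 24 arrays there were 542 (484 shared). Leaving out single arrays gave 249 (without LR 3 days replicate 3) to 448 (without intact replicate 1), and the other 4 settings were within 1.5 times. Against LR 24 h the 1151 calls became 1775 with 2 groups alone, 1864 with array weights, and 513 (without LR 24 h replicate 2) to 1001 without single arrays. Against LR 7 days the 349 became 75 with 2 groups alone, 0 with 2 groups and the replicate block (limma, 2593 at an unadjusted p under 0.05), 958 with array weights, 584 with the Y-linked block, and 63 (without LR 3 days replicate 3) to 930 (without LR 7 days replicate 2) without single arrays. Against SE the 978 became 1637 with 2 groups alone, 1601 with 2 groups and the replicate block, 1503 with array weights, and 327 (without LR 3 days replicate 3) to 886 without single arrays. Quantile normalisation split the calls against SE into 563 higher and 511 lower, in place of 694 and 284. The cause of these shifts was not tested.

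Of 139 named genes, 43 kept their call and direction under every alternative that could be run on them. The Y-linked block lost 81, of which Eif2s3y reversed, at -0.29. The replicate block lost Psmb6, Itga6 and Fabp1 and no other named call, and over lists it moved the calls by more than 1.5 times in circadian clock genes (3 in place of 0), unfolded protein response genes (4 in place of 2), ribosome biogenesis (2 in place of 1), proteasome (1 in place of 2) and integrins (1 in place of 2). In the other 3 comparisons same-numbered arrays did not deviate together. Signals near the top of the scale or under background limit what differences can be seen, and 3 arrays per group, perhaps of shared mice, limit every test.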

Other observations

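Several lists not described above had few or no calls between LR 3 days and intact. Of 32 lysosome genes Gusb (1.69) and Naglu (1.22), both of glycan breakdown, rose. Of 24 unfolded protein response and ATF4 genes Dnajb9, a chaperone of the endoplasmic reticulum, and Ppp1r15a fell by 1.54 and 1.75. Sqstm1, the autophagy receptor p62, fell by 1.73 and Gsr, glutathione reductase, rose by 1.54, so that 1 of 23 NRF2 and oxidative stress genes moved each way. Of 24 toll-like receptor genes Tlr13, a sensor of bacterial ribosomal RNA, rose by 1.45. Of 37 apoptosis regulators Birc5 and Bak1 rose and Mcl1 fell. Bak1, which opens the outer mitochondrial membrane, read 9.37, 9.38 and 9.83 on the LR 3 days arrays, against 8.33, 8.32 and 7.36 on the intact arrays. Of 15 alternative settings, Naglu kept its call in 5, Dnajb9 and Gsr in 7, Tlr13 and Mcl1 in 8, Gusb in 9 and Bak1 in 12. All of these lost it with the Y-linked block, and Naglu also with quantile normalisation. Sqstm1, Ppp1r15a and Birc5 kept their calls in all 15.

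Of 27 stellate cell and fibroblast genes Sparc (2.62), a matrix glycoprotein, and Col3a1 (1.84) rose. None of the 27 was called with Y-linked signal as a block (median 0.06) or without LR 3 days array 3, and 1 was without LR 3 days array 2, intact array 2 or intact array 3. Acta2 (0.82) and Col1a1 (0.65) were not called, at means of 4.26 and 4.84 on the LR 3 days arrays and 3.44 and 4.19 on the intact arrays. The lists of mast cells, platelets, erythroid cells and cholangiocytes had no call.

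Dmbt1, a secreted scavenger protein of epithelia, read 3.38, 3.62 and 3.37 on the LR 3 days arrays, against 10.37, 6.65 and 8.98 on the intact arrays, and was among the 12 largest falls. It averaged 5.19 in SE. Sult2a8, a liver sulfotransferase, fell by 3.61, and the part of hepatocyte RNA in it was not tested. Of 1091 odorant receptor genes, which served as the background, 1 was called in each direction.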
